A study of Komagataella phaffii with 102 samples.

Results

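This account compares 2 natural strains of the methylotrophic yeast Komagataella phaffii, Y-17741 against YB-378, after 24 h of growth in glycerol medium. The 6 libraries were taken by their labels, as the 3 replicates (A, B and C) of each strain under that culture, out of 36 libraries of 11 strains at 24 h glycerol, beside which the series holds 28 libraries at 48 h glycerol and 38 in methanol. Y-17741 was isolated from an oak and YB-378 from an elm, both came from the USDA-NRRL collection, and neither carried a transgene. Both were grown in buffered complex glycerol medium in deep-well plates, with no treatment, and later cultures of both received a further 24 h in fresh glycerol (48 h glycerol) or in methanol. Nothing in the labels says whether the letters mark separate cultures, so the p-values measure only the spread between these libraries, which may be technical. Each strain is 1 isolate, so the comparison is between isolates and not between groups of them. The other 9 strains shared the model and serve below as a range. They were Y-11430, Y-12729, Y-48123, Y-7556, YB-4289, YB-4290, GS115, X-33 and Y-48124. GS115 is a histidine auxotroph made from Y-11430 by mutagenesis, and the study lists X-33 and Y-48124 as its revertants.

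K. phaffii grows on glycerol as a source of carbon and energy and keeps its methanol genes largely silent while glycerol lasts. When glycerol runs out, growth slows and many genes for transport, storage and stress change. The study placed YB-378 with Y-7556, YB-4289 and YB-4290 in a set it called Cluster 2, and found Y-17741 apart from every other strain. The study picked these sets on expression in the same libraries, so they are used here only as names.

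The 6 libraries held between 3035466 and 4745818 counts, and a count of 0 in a library allows a level of up to 0.632 to 0.988 CPM (counts per 1000000 counts of the library), counting error only. YB-378 replicate A stood apart from the other YB-378 libraries. The standard deviation (SD) over genes of the log2 ratio of 2 libraries was 0.208 to 0.251 between pairs of Y-17741 libraries. In YB-378 it was 0.223 between B and C, but 0.614 between A and B and 0.580 between A and C, against 0.687 to 0.737 between libraries of different strains. YB-378 A lay more than 2-fold from the mean of B and C in 504 of 5018 genes. The library nearest to YB-378 A was the A library of YB-4289 (SD 0.445), followed by those of YB-4290 (0.488) and Y-7556 (0.512). The deviation of YB-378 A from its strain mean correlated across genes with the A deviations of those 3 strains at r = 0.72 to 0.79. With that of Y-17741 A it correlated at r = -0.02. In these correlations genes are not independent replicates. On an axis that runs from 0 at the 24 h glycerol mean to 1 at the 48 h glycerol mean of Y-12729 and Y-48124, the Y-17741 libraries lay at -0.03 to 0.00, YB-378 A at -0.01, and YB-378 B and C at -0.15 and -0.11. The 6 Y-11430 libraries, which belong to the range of other strains used below, lay at 0.49 to 0.635. The part of these library differences in the results was not tested, and results are given with and without YB-378 A. The 7 genes of the linear plasmid contig had 0, 14 and 17 counts in Y-17741 A, B and C and 0, 0 and 1 in YB-378.

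**Figure D1:**
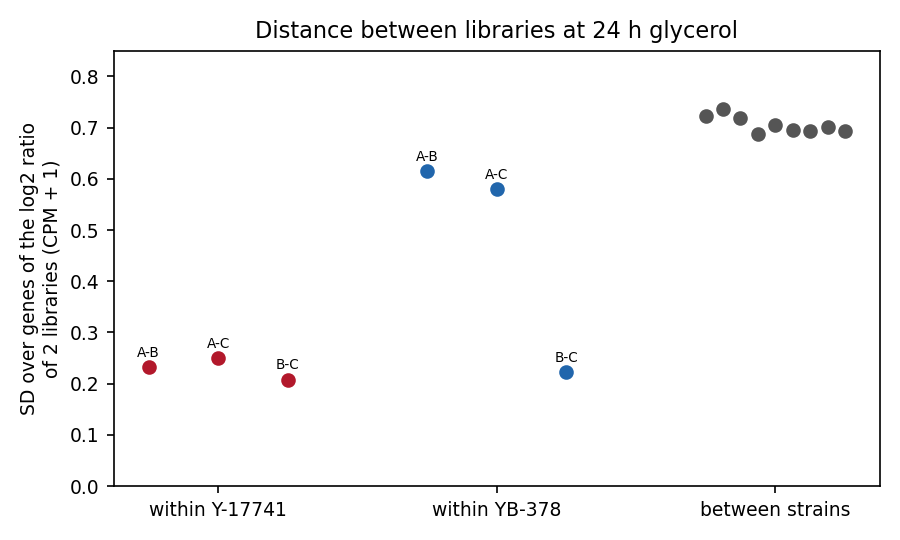
Distance between pairs of libraries at 24 h glycerol, as the SD over genes of the log2 ratio of CPM + 1, for pairs within Y-17741, within YB-378 and between the strains (1 point per pair, with the letters of the 2 libraries for pairs within a strain). The 2 pairs that hold YB-378 A, at 0.614 and 0.580, lie nearer to the pairs between strains than to the other pairs within a strain.

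Of 5018 genes tested, 481 differed between Y-17741 and YB-378 at 24 h glycerol (9.59% called). A gene was called at an adjusted p under 0.05 in edgeR's quasi-likelihood test and a fold change of at least 2, which is 1 on the log2 scale. Of the called genes 197 were higher in Y-17741 (3.93% of genes tested) and 284 were lower (5.66%). Most differences were moderate, with a median absolute log2 fold change of 1.34 among the higher and 1.32 among the lower genes. A log2 fold change of at least 3 was reached by 12 higher and 11 lower genes. The 3 libraries of one strain did not overlap those of the other in 196 of the 197 higher genes and in 257 of the 284 lower genes, while 47.9% of all genes tested showed no overlap. With adjusted p alone 1667 genes passed.

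Leaving out YB-378 A gave 618 called genes, 274 higher and 344 lower in Y-17741. Of the 481 genes called with it, 422 were also called without it in the same direction, 176 of them higher and 246 lower, and 0 of 481 changed sign. The other 59 genes were called only with YB-378 A, and 196 genes only without it. The scale of expression moved the split between directions. On the deposited log2(TPM + 1) values, limma called 499 genes, 123 higher and 376 lower, and the median gene on that scale lay at -0.19, against -0.01 in the count fit. Counts of higher and lower genes are relative to that median.

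**Figure D2:**
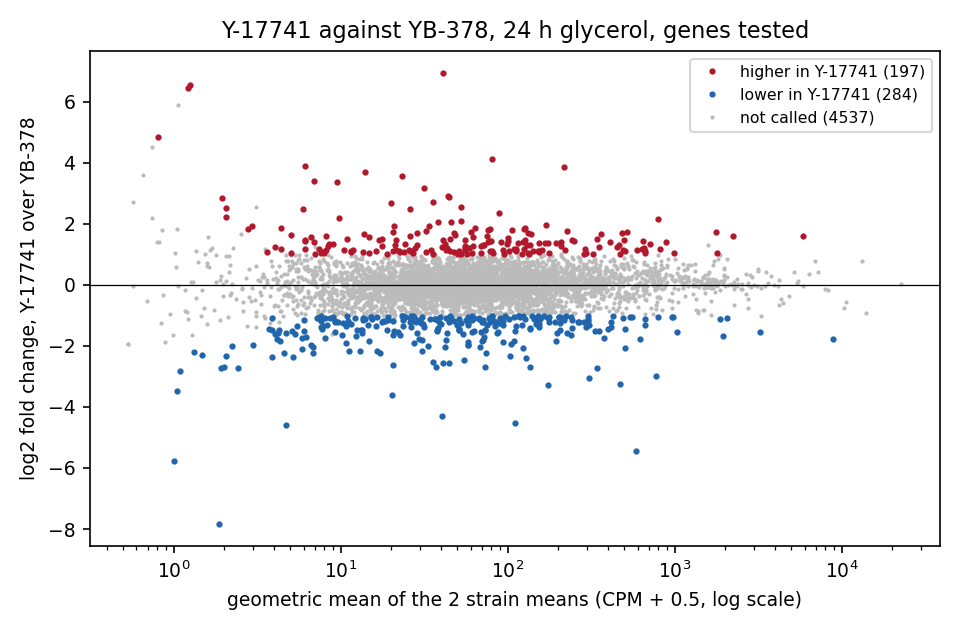
Log2 fold change of Y-17741 over YB-378 at 24 h glycerol from the edgeR fit (vertical) against the geometric mean of the strain means in CPM + 0.5 (horizontal, log scale), 1 point per gene tested. The 197 higher and 284 lower genes are spread over the whole range of expression.

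The files do not pair gene identifiers with names or functions, and genes are given by the identifiers of the Y-11430 annotation, with coordinates on the Y-11430 assembly. The largest rise among genes with at least 10 CPM in the higher strain was that of GQ67_04117 (chr3:1921844-1923856), with 467, 397 and 405 CPM in Y-17741 A, B and C, against 2.96, 4.37 and 2.95 CPM in YB-378. The Y-17741 libraries lay far above every YB-378 library, at a log2 fold change of 6.94 ± 0.87 (SE, n = 3 each, edgeR adjusted p = 6.06e-07). At 48 h glycerol the same gene was at 909 and 746 CPM in Y-17741, against 259, 342 and 436 CPM in YB-378. The strain difference thus remained at 48 h glycerol (log2 fold change 1.26) but differed from that at 24 h by -5.52 on the log2 scale, a change called by edgeR's interaction test.

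GQ67_03026 (chr3:35889-40734) had 673, 872 and 967 CPM in Y-17741, against 102.5, 29.7 and 35.6 CPM in YB-378, where A was the highest library. The groups did not overlap, and the log2 fold change was 3.88 ± 0.36 (edgeR adjusted p = 2.38e-09), or 4.72 without YB-378 A. GQ67_02712 (chr1:812647-813503) had 274, 336 and 390 CPM in Y-17741, against 13.2, 24.6 and 19.2 CPM in YB-378 (log2 fold change 4.12 ± 0.70). It overlaps GQ67_02713 on the other strand over 537 of its 857 bases, and that partner averaged only 1.73 CPM in Y-17741 and 0.734 CPM in YB-378. GQ67_03787 (chr3:1343703-1344407) had 38.9, 52.7 and 53.5 CPM in Y-17741, against 2.31, 4.60 and 3.79 CPM in YB-378, and GQ67_05326 (chr4:1750606-1751413) had 59.4, 81.5 and 87.3 CPM in Y-17741, against 8.89, 5.98 and 4.85 CPM in YB-378. These 2 genes kept large strain differences at 48 h glycerol, when GQ67_03787 was at 1208 and 1103 CPM in Y-17741, against 49.9, 16.4 and 24.6 CPM in YB-378, and GQ67_05326 was at 1828 and 1913 CPM in Y-17741, against 135, 86.2 and 79.9 CPM in YB-378.

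The other genes of this group were scarcer. GQ67_01077 (chr2:1917870-1921304) ranged from 19.3 to 23.4 CPM in Y-17741 and from 0.329 to 2.32 CPM in YB-378, and GQ67_02792 (chr1:964043-965149) ranged from 14.1 to 24.7 CPM in Y-17741 and from 0.690 to 3.95 CPM in YB-378. Both were called at a log2 fold change over 3, although GQ67_02792 was not called in 3 of 14 alternative analyses. GQ67_01355 (chr1:2876297-2884735), a long gene 4.6 kb from the end of chromosome 1 (ends were taken at base 1 and at the last annotated base), had 24.3, 21.7 and 40.1 CPM in Y-17741, against 0.988, 4.14 and 2.74 CPM in YB-378. Its strain difference was larger at 48 h glycerol, with 231 and 204 CPM in Y-17741 and 3.26, 1.78 and 5.96 CPM in YB-378 (interaction 2.83 on the log2 scale, called by edgeR).

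Among the called genes lower in Y-17741 with at least 10 CPM in YB-378 and no overlap between the strains, GQ67_04461 (chr4:330576-333578) showed the largest difference. It had 47.7, 91.1 and 132 CPM in Y-17741, against 5866, 2615 and 2907 CPM in YB-378, with a log2 fold change of -5.44 ± 0.68 (edgeR adjusted p = 5.46e-07). YB-378 A was the highest library, and without it the log2 fold change was -4.91. At 24 h the 30 libraries of the other 9 strains held 95.4 to 3936 CPM, with a median of 992. YB-378 was also called higher than YB-4289 (log2 fold change 3.22). The gene was also lower in Y-17741 in both later cultures, with 143 and 181 CPM in Y-17741 at 48 h glycerol, against 2931, 4446 and 2162 CPM in YB-378. GQ67_03041 (chr3:82461-84602) had 98.7, 164 and 191 CPM in Y-17741, against 806, 1891 and 1664 CPM in YB-378, and all 3 Y-17741 libraries lay below all 30 libraries of the other 9 strains (229 to 4291 CPM). Its strain difference was larger at 48 h glycerol and in methanol than at 24 h, by -2.28 and -2.41 on the log2 scale. GQ67_03477 (chr3:810778-812553) likewise lay below all 30 other libraries, with 43.4, 55.4 and 69.3 CPM in Y-17741, against 537, 414 and 672 CPM in YB-378 and 89.2 to 1912 CPM in the other 9 strains.

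GQ67_01233 (chr2:2170626-2172211) had 29.1, 18.5 and 20.8 CPM in Y-17741, against 325, 603 and 665 CPM in YB-378 (log2 fold change -4.52 ± 1.00). At 48 h glycerol its levels overlapped, at 1600 and 1008 CPM in Y-17741, against 1280, 993 and 1091 CPM in YB-378, and the interaction of 4.90 on the log2 scale was called by edgeR. At 24 h the 30 libraries of the other 9 strains held 0.436 to 875 CPM of GQ67_01233, with a median of 6.86. Every Y-17741 library thus lay above that median. GQ67_04920 (chr4:1113914-1114900) had 124, 111 and 81.4 CPM in Y-17741, against 235, 1080 and 1355 CPM in YB-378. Here YB-378 A lay between the Y-17741 libraries and YB-378 B and C, and the log2 fold change was -3.04 with it and -3.48 without it.

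**Figure D3:**
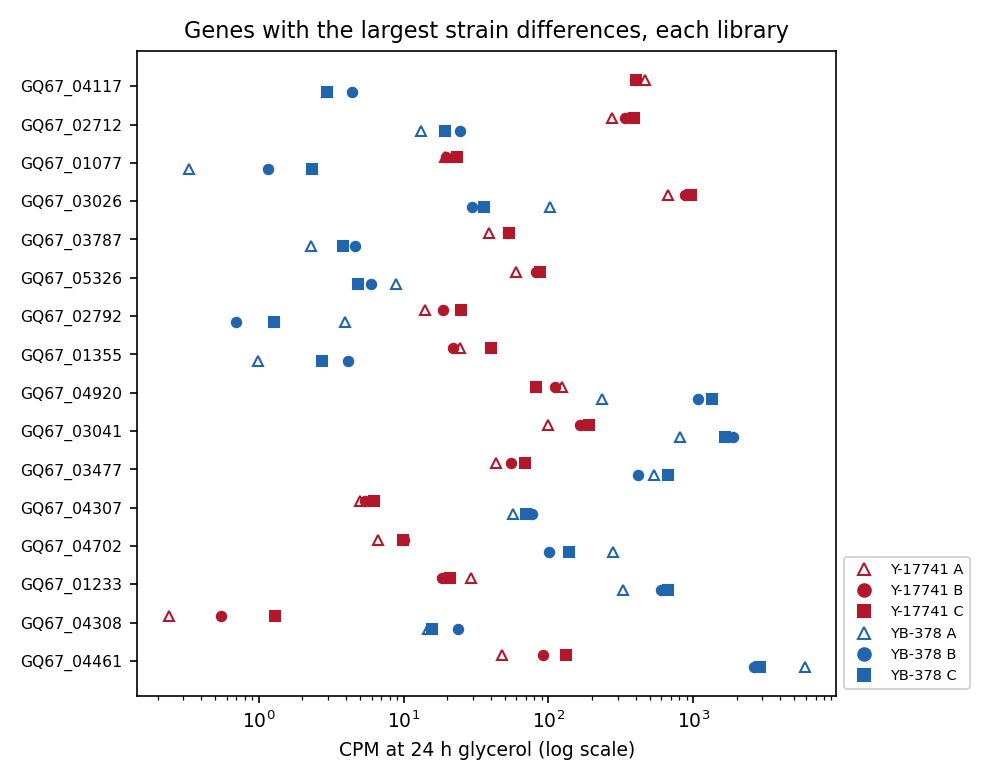
Level in CPM (log scale) of the 8 genes with the largest positive and the 8 with the largest negative log2 fold change among called genes without overlap and with at least 10 CPM in the higher strain, 1 point per library, Y-17741 above YB-378 in each row (open triangles are the A libraries). The strains do not overlap in any of the 16 genes, as the choice requires, and YB-378 A lies apart from B and C in several, such as GQ67_03026, GQ67_04920 and GQ67_04461.

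Among the other called genes, the 4 of highest CPM in each direction (CPM is not scaled for gene length) had log2 fold changes of 1.03 to 1.72 and of -1.09 to -1.76. GQ67_00519 (chr2:876138-877312) had 10440, 10365 and 10256 CPM in Y-17741, against 5672, 2027 and 2244 CPM in YB-378, and GQ67_00349 (chr2:588020-589102) had 3764, 3826 and 4267 CPM in Y-17741, against 2146, 850 and 764 CPM in YB-378. In both genes YB-378 A lay between Y-17741 and the other YB-378 libraries, and GQ67_00519 was not called in 3 of 14 alternative analyses. GQ67_00861 (chr2:1506691-1508580) was even within each strain, with 3028, 3234 and 3361 CPM in Y-17741, against 1009, 975 and 924 CPM in YB-378 (log2 fold change 1.72 ± 0.24, edgeR adjusted p = 2.87e-06). Its Y-17741 libraries lay above all 30 libraries of the other 9 strains, whose highest was 2171 CPM. GQ67_01115 (chr2:1980805-1981392) had 2712, 2580 and 2455 CPM in Y-17741, against 1649, 990 and 1102 CPM in YB-378. It stood close to the fold threshold, at a log2 fold change of 1.03, and was not called in 7 of 14 alternative analyses.

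In the other direction, GQ67_02358 (chr1:194463-197384) had 5032, 4759 and 4905 CPM in Y-17741, against 25005, 11420 and 12464 CPM in YB-378 (log2 fold change -1.76, or -1.24 without YB-378 A). GQ67_01400 (chr1:2775791-2777464) had 1143, 1145 and 1005 CPM in Y-17741, against 3805, 3028 and 3508 CPM in YB-378, and was also lower in Y-17741 at 48 h glycerol (log2 fold change -2.83). GQ67_02564 (chr1:545446-551869) had 1381, 1458 and 1379 CPM in Y-17741, against 2406, 3381 and 3223 CPM in YB-378. These 3 genes were called in all 14 alternative analyses. GQ67_04388 (chr4:191180-192475) turned its direction between cultures. It had 1938, 1890 and 1884 CPM in Y-17741, against 8148, 4080 and 4169 CPM in YB-378 at 24 h, and 223 and 245 CPM in Y-17741, against 71.6, 39.0 and 36 CPM in YB-378 at 48 h glycerol. The interaction was 3.94 on the log2 scale at 48 h glycerol and 4.11 in methanol, both called by edgeR.

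The study singled out GQ67_02041 as a cell wall gene with a sequence change in GS115. It paired 8 other identifiers with gene names after choosing them on the 24 h glycerol libraries of all strains, these among them. The differences of those 8 genes are thus not independent evidence. The study chose further genes on the same libraries without naming them. Among these were GQ67_02712, GQ67_03787, GQ67_05326 and GQ67_04920, described above as called, so their differences are not independent evidence either. Of the 9 genes, 1 was called at 24 h with all libraries, against 9.59% of all genes tested. Without YB-378 A 3 of the 9 were called, against 12.3% of all genes. The median log2 fold change of the 9 was 0.78 (1.38 without YB-378 A), against -0.01 for all genes tested. The called gene was NIT1 (GQ67_00061, chr2:66393-67522), named after a nitrilase of Saccharomyces cerevisiae. NIT1 had 111, 119 and 128 CPM in Y-17741, against 5.60, 22.1 and 20.2 CPM in YB-378 (log2 fold change 2.87 ± 0.32, edgeR adjusted p = 6.87e-08), and it was also higher in Y-17741 at 48 h glycerol (2.32) and in methanol (2.38). It was called in all 14 alternative analyses, at log2 fold changes of 2.54 to 3.11.

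In several of the others YB-378 A lay apart from B and C. CTR1 (GQ67_04497), which in S. cerevisiae is a copper transporter of the cell surface, had 2372, 2582 and 2690 CPM in Y-17741, against 1831, 566 and 577 CPM in YB-378. The groups did not overlap, and CTR1 was not called with YB-378 A (log2 fold change 1.32, edgeR adjusted p = 0.106) but was without it (2.20, adjusted p = 0.017). FLO11-BSC1 (GQ67_01392), whose S. cerevisiae namesakes are a flocculin of the cell surface and a gene like it, had 289, 304 and 304 CPM in Y-17741, against 215, 110 and 112 CPM in YB-378. With all libraries it was not called (log2 fold change 1.01), and without YB-378 A it was (1.47). The study reported uneven depth of genome reads over FLO11-BSC1 in both strains, and how far this changed its counts was not measured. FRE1 (GQ67_04112), a reductase of iron and copper at the cell surface in S. cerevisiae, had 2179, 2225 and 2466 CPM in Y-17741, against 2086, 916 and 899 CPM in YB-378, and was called neither with YB-378 A (0.78) nor without it (1.38, edgeR adjusted p = 0.12). FRE1 was called in 1 of 14 alternative analyses, the one without the A libraries of the 4 Cluster 2 strains.

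PDR12 (GQ67_05224), in S. cerevisiae a pump for weak organic acids, overlapped between the strains, with 988, 1145 and 1411 CPM in Y-17741, against 1344, 734 and 780 CPM in YB-378 (log2 fold change 0.28). YFL040W (GQ67_02261) had 59.6, 62.8 and 49.8 CPM in Y-17741, against 6.59, 92.9 and 79.2 CPM in YB-378, so its sign at a log2 fold change of -0.04 depended on the library left out. ZPS1 (GQ67_03591), in S. cerevisiae a surface protein made when zinc is scarce, was at 2.39, 6.79 and 8.66 CPM in Y-17741, against 0.988, 2.07 and 0 CPM in YB-378, and did not pass the test at 24 h (2.56, edgeR adjusted p = 0.081), although it was called in 5 of 14 alternative analyses. At 48 h glycerol ZPS1 was higher in Y-17741, at 140 and 171 CPM, against 27.4, 16.7 and 16 CPM in YB-378 (log2 fold change 2.96). YDL218W (GQ67_02654) and GQ67_02041 were not called at 24 h, at log2 fold changes of -0.89 and -0.52. GQ67_02041 averaged 653 CPM in Y-17741 and 64.0 CPM in YB-378 in methanol, and edgeR called its interaction of 4.11.

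Called genes were placed along the chromosomes, where 5 runs of at least 3 neighbouring genes were called in the same direction, 2 higher and 3 lower in Y-17741. The run with the largest differences, GQ67_04307 to GQ67_04309 (chr4:21505-25835), starts 21.5 kb from the end of chromosome 4. GQ67_04307 had 5.01, 5.44 and 6.28 CPM in Y-17741, against 56.7, 77.5 and 70.4 CPM in YB-378 (log2 fold change -3.60 ± 0.30, edgeR adjusted p = 3.28e-10). GQ67_04308 had 0.239, 0.544 and 1.3 CPM in Y-17741, against 14.8, 23.7 and 15.6 CPM in YB-378. GQ67_04309 had 0 counts in each Y-17741 library, against 7.25, 5.75 and 6.74 CPM in YB-378, so it was at least 27.4-fold lower in Y-17741, with the floor set at 3 counts over the 3 libraries. All 3 genes lay below the 30 libraries of the other 9 strains in every Y-17741 library. For GQ67_04309 those libraries held 0.916 to 5.82 CPM, with a median of 2.65, so YB-378 stood at the high end. Reads were counted on the Y-11430 genome, and whether Y-17741 holds the sequence of these genes was not tested. Both strains are among those the study found to differ most from Y-11430 in sequence. It also reported large deletions in both. In the later cultures of Y-17741, GQ67_04309 had 1 count in all at 48 h glycerol and 0 in methanol, and GQ67_04308 had 0 CPM in both libraries at 48 h glycerol, against 42.1, 29.5 and 23.6 CPM in YB-378. GQ67_04307 instead reached 46.3 and 38.7 CPM in Y-17741 at 48 h glycerol, against 91.2, 79.7 and 76.8 CPM in YB-378, a smaller strain difference (interaction 2.83, called by edgeR).

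The run GQ67_03024 to GQ67_03026 (chr3:32010-40734) was higher in Y-17741 at 24 h, and all 3 genes were also called higher at 48 h glycerol. GQ67_02199 to GQ67_02197 (chr1:1384252-1389385) was led by GQ67_02199, with 859, 972 and 1014 CPM in Y-17741, against 264, 299 and 282 CPM in YB-378 (log2 fold change 1.75 ± 0.13), while the last gene of the run fell under the fold threshold without YB-378 A. The run GQ67_04702 to GQ67_04704 (chr4:763186-767093) was lower in Y-17741, with GQ67_04702 at 6.68, 10.1 and 9.96 CPM in Y-17741, against 277, 101.6 and 139 CPM in YB-378. For GQ67_04702 the 30 libraries of the other 9 strains held 8.13 to 107 CPM, with a median of 19.2. The first pair of genes in that run overlaps by 82 bases on the same strand, reads there cannot be told apart, and its middle gene, GQ67_04703, was not called without YB-378 A. The run GQ67_00963 to GQ67_00965 (chr2:1710411-1718771) was lower by smaller margins (log2 fold changes of -1.07 to -1.58), and GQ67_00963 shares 1456 of its 1674 bases with a gene on the other strand. Without YB-378 A, every gene was still called in 2 of the 5 runs, GQ67_04307 to GQ67_04309 and GQ67_03024 to GQ67_03026, and each of the other 3 lost 1 gene.

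Within 50 kb of a chromosome end 20 of 141 genes tested were called (14.2%, exact 95% interval 8.88 to 21.1%), an interval that includes the 9.59% of all genes. Of 4917 pairs of neighbouring genes tested, both genes were called in 61, of which 45 had the same direction and 16 the opposite, a description with no test. How many such pairs would arise with calls spread at random was not computed. The counts alone thus do not speak to grouping. Gene length differed between the directions. The median exonic length was 1116 bases in the genes higher in Y-17741, 1672 bases in the lower genes and 1400 bases in all genes tested. Of the 1260 shortest genes (up to 909 bases) 77 were higher and 42 lower, and of the 1255 longest (from 2082 bases) 28 were higher and 106 lower. Without YB-378 A the shortest genes held 103 higher and 54 lower ones and the longest 45 and 106. Across the genes tested, log2 length and log2 fold change correlated at r = -0.17 at 24 h, -0.13 at 48 h glycerol and -0.12 in methanol, where genes are not independent replicates. The share of unlisted TPM, the part of each library outside the genes in the tables, was 25.7, 28.0 and 10.5% in Y-17741 and 18.8, 12.7 and 11.4% in YB-378, and its part in the relation to length was not tested.

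**Figure D4:**
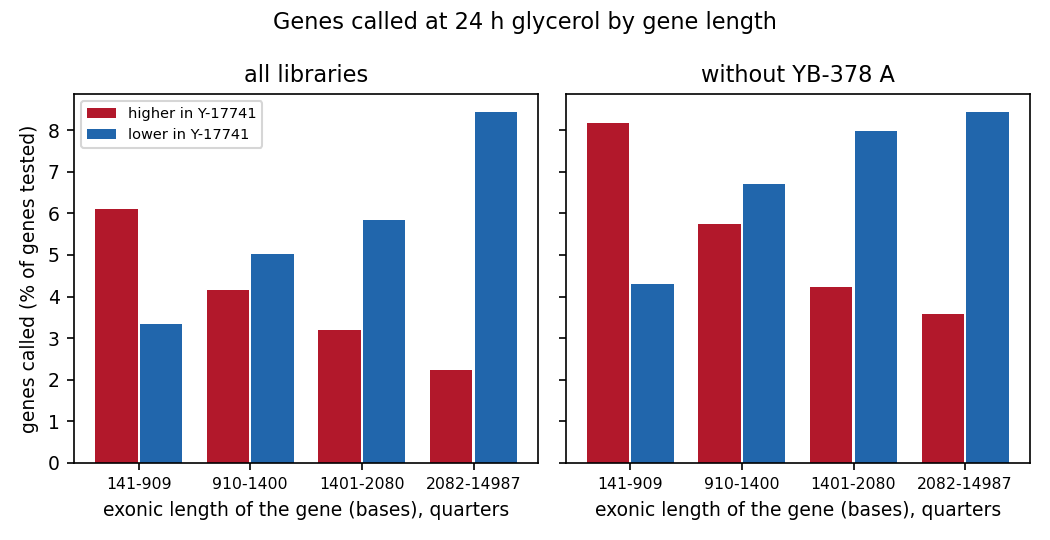
Share of genes tested that were called higher (left bar) or lower (right bar) in Y-17741 than in YB-378 at 24 h glycerol, in 4 classes of exonic length of about equal size, with all libraries and without YB-378 A. The higher share is largest among genes of up to 909 bases (6.11%) and the lower share among genes from 2082 bases (8.45%).

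The same strain contrast was then taken in the later cultures, which share no library with it. At 48 h glycerol (2 Y-17741 and 3 YB-378 libraries) 1187 of 5046 genes were called (23.5%), 534 higher and 653 lower in Y-17741. In methanol (4 and 2 libraries) 1515 of 5045 were called (30%), 680 higher and 835 lower. Of the 197 genes higher at 24 h, 70 (35.5%) were called higher at 48 h glycerol, against 10.6% of all genes tested there, and 55 of 196 (28.1%) in methanol, against 13.5%. Of the lower genes, 126 of 282 (44.7%) were called lower at 48 h glycerol, against 12.9% of all genes, and 88 of 281 (31.3%) in methanol, against 16.6%. In all 3 cultures 30 of the 197 genes were higher and 65 of the 284 lower, with no share over all genes taken. Of the higher genes, 16 of 197 were called lower at 48 h glycerol, against 12.9% of all genes, and 26 of 196 in methanol, against 16.6%. Of the lower genes, 13 of 282 were called higher at 48 h glycerol, against 10.6%, and 17 of 281 in methanol, against 13.5%. Of the genes called without YB-378 A, 26.3% of the higher and 34.3% of the lower genes were called in the same direction at 48 h glycerol.

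The interaction test asked whether the strain difference itself changed between cultures. At 48 h glycerol it was called for 787 of 5087 genes (15.5%), with the difference moved towards Y-17741 in 536 (10.5%) and towards YB-378 in 251 (4.93%). In methanol it was called for 1430 genes (28.1%), 830 (16.3%) and 600 (11.8%) in those directions. The count at 48 h fell to 370 without Y-17741 replicate B of that culture, which leaves a single Y-17741 library of 800311 counts whose spread is assumed to be like that of the other groups, and the balance of directions turned to 262 and 288 without YB-378 replicate B of that culture. In methanol the count was 1079, split into 533 and 546, without YB-378 replicate B, which leaves a single YB-378 library. Among the genes called at 24 h, the interaction was called for 52 of 197 higher and 81 of 284 lower genes at 48 h glycerol, mostly as a smaller difference (45 and 74), a direction that choosing genes on the 24 h values favours.

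**Figure D5:**
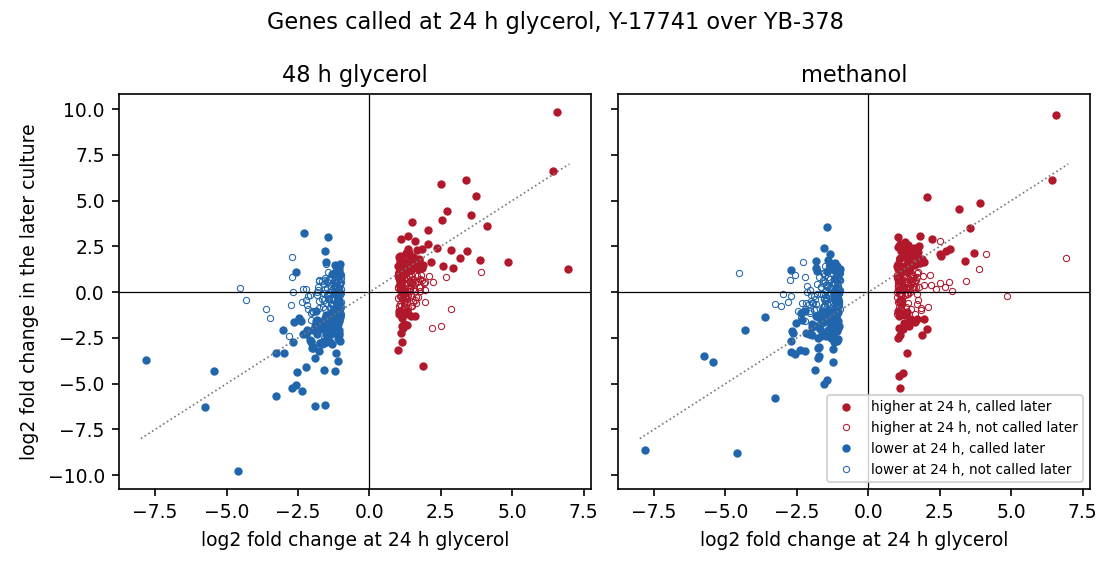
Log2 fold change of Y-17741 over YB-378 at 48 h glycerol (left) and in methanol (right) against that at 24 h glycerol, 1 point per gene called at 24 h, filled where it was also called in the later culture in either direction. Most points lie in the quadrants of the same sign, and the dotted line marks equal values.

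The called genes were last set beside the other 9 strains. All 3 Y-17741 libraries lay outside the range of the 30 other libraries in 117 of the 481 called genes (24.3%, against 9.21% of all genes tested), and all 3 YB-378 libraries in 23 (4.78%, against 1.61%). In 77 of the 284 lower genes Y-17741 was outside that range, and in 40 of the 197 higher genes. The reference includes Y-7556, YB-4289 and YB-4290, of the same Cluster 2 as YB-378. Taken by means, the higher genes gave another picture. There the Y-17741 mean lay outside the 9 strain means in 63 genes (32.0%, against 29.6% of all genes tested). The YB-378 mean did so in 69 (35.0%, against 17.5%). Among the lower genes the counts were 163 (57.4%) for Y-17741 and 47 (16.55%) for YB-378. By strain mean, Y-7556, YB-4290 and YB-4289 were nearer to YB-378 than to Y-17741 in 88.1, 87.9 and 87.1% of the called genes, and in 73.4, 71.5 and 72.6% of all genes tested. The other 6 strains were nearer to YB-378 in 37.0% (Y-11430) to 59.3% (Y-48124) of the called genes, and in 45.8 to 55.8% of all genes tested. All these shares in called genes use the Y-17741 and YB-378 libraries on which the genes were called. That choice by itself can set them apart from the shares in all genes tested. In the same model Y-17741 against YB-4289 gave 640 called genes (12.8%), 265 higher (5.28%) and 375 lower (7.47%), and YB-378 against YB-4289 gave 79 (1.57%), 33 higher (0.658%) and 46 lower (0.917%), each sharing libraries with the main comparison. The genome sequences of Y-7556 and YB-4290 did not differ according to the study. Between them edgeR called 0 genes and DESeq2 0, and 42 had an unadjusted p under 0.05 in edgeR.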

How the data were processed

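The authors aligned 40-nt reads with STAR 2.5.3a to their Y-11430 assembly, counted genes with RSEM 1.3.0 and deposited expected counts (100% whole numbers, used as they are) and log2(TPM + 1) values for 5116 genes. Reads of both strains were thus counted on the genome of another strain, and how far sequence differences changed the counts was not measured. Whether counting used strand is not given in the sources used here. A RefSeq table of 5040 genes held 0 of the identifiers.

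The counts were analysed with edgeR 4.0.16 in R 4.3.3 (TMM, filterByExpr, robust quasi-likelihood fit, two-sided F test, Benjamini-Hochberg adjustment over all genes tested), with 1 model per culture and a mean per strain, and 1 model of all libraries for the interactions. The common biological coefficient of variation was 0.183 at 24 h glycerol. CPM are counts per 1000000 counts of a library. SE is the log2 fold change divided by the root of F. Alternatives used DESeq2 1.42.0, limma 3.58.1 on TPM, RLE factors, no filter, no fold minimum, a replicate block, the 6 libraries alone and each library left out. Scripts were tested on simulated data.

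Genes were named by rule: the 8 largest differences each way among called genes without overlap and with at least 10 CPM in the higher strain, the 4 of highest CPM each way among the rest, the 9 genes the study named, and runs of at least 3 neighbouring called genes. Members and lists were chosen with earlier results of these data known.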

Additional observations from a re-analysis of the deposited data

Results flagged for a closer look

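The strain difference between Y-17741 and YB-378 differed between cultures, by the interaction test in edgeR, for 787 genes at 48 h against 24 h glycerol and for 1430 genes in methanol against 24 h glycerol. Among the named genes it moved towards Y-17741 at 48 h glycerol in GQ67_01233 (4.90 on the log2 scale), GQ67_04702 (4.05), GQ67_04388 (3.94), GQ67_04704 (3.67), GQ67_04703 (3.29), GQ67_01355 (2.83), GQ67_04307 (2.83), GQ67_02564 (1.86) and GQ67_02358 (1.42). It moved towards YB-378 at 48 h glycerol in GQ67_04117 (-5.52), GQ67_03041 (-2.28), GQ67_03026 (-1.96) and GQ67_02199 (-1.31).

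In methanol it moved towards Y-17741 in GQ67_01233 (5.71), GQ67_02041 (4.11), GQ67_04388 (4.11), GQ67_00965 (2.78), GQ67_03477 (2.77), GQ67_04704 (2.61), GQ67_04703 (2.58), GQ67_04920 (2.43), GQ67_04307 (2.38), GQ67_04702 (2.36) and GQ67_01115 (2.14). It moved towards YB-378 in methanol in GQ67_04117 (-4.89), GQ67_00349 (-2.68), GQ67_02792 (-2.62), GQ67_03026 (-2.46), GQ67_03041 (-2.41) and GQ67_00861 (-2.24).

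In the 4 methanol libraries of Y-17741, 6 of 44 named genes had 1 library far from the other 3 by Dixon's criterion, which chance meets in about 1 in 20 groups. In 5 of them it was replicate C: GQ67_01077 at 668 CPM, against 38.7 to 98.5 in the others, GQ67_03024 at 12.2, GQ67_04112 (FRE1) at 611, GQ67_04497 (CTR1) at 257 and GQ67_04308 at 0.817 CPM. In GQ67_03787 it was replicate B, at 37.0 CPM. The value of GQ67_04308 lies under the 1.225 CPM that a count of 0 allows in replicate C, so it cannot be told from 0.

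The genes of the linear plasmid contig had more counts than a count of 0 allows in Y-17741 B (14) and C (17) at 24 h glycerol and in YB-378 A at 48 h glycerol (31). Of the genes tested at 24 h glycerol, 3 lay off the 4 chromosomes, and 0 of these were called.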

How the results depend on the processing

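The count at 24 h glycerol was within 1.5 times of 481 under each alternative except the one without a fold minimum (1667), and leaving out single libraries gave 436 to 618. Without a fold minimum the other counts were 2104 at 48 h glycerol, 2002 for Y-17741 against YB-4289 and 193 for YB-378 against YB-4289. Leaving out single libraries gave 808 to 1222 genes at 48 h glycerol, 1116 to 1499 in methanol, 370 to 933 for the interaction at 48 h and 1079 to 1470 in methanol, 587 to 725 and 58 to 108 for Y-17741 and YB-378 against YB-4289, and 0 between Y-7556 and YB-4290. The split at 24 h on log2(TPM + 0.1) was 130 higher and 423 lower. An alternative chosen after seeing the data left out the A libraries of the 4 Cluster 2 strains at 24 h, and gave 634 genes (282 higher, 352 lower, 424 shared), 954 for the interaction at 48 h (492 and 462, so the excess of the first direction was nearly lost) and 1450 in methanol (718 and 732). The cause was not tested.

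Same-letter libraries of the strains did not deviate together (r = -0.01, -0.02 and -0.03), so the letters do not pair them. The replicate block gave 484 genes at 24 h (206 and 278). The share called near chromosome ends was 12.9% within 25 kb and 10.8% within 100 kb, and 14.9% within 50 kb without YB-378 A, when 12.3% of all genes were called.

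Of 36 named genes called at 24 h, 28 stayed called in all 14 alternatives, and 0 changed sign. YFL040W (GQ67_02261), not called, had a log2 fold change of 0.17 with the block, 0.37 and 0.44 on TPM, and -0.53 to 0.37 without single libraries. Of the named genes not called, ZPS1 was called in 5 alternatives, CTR1 and FLO11-BSC1 in 3 each (FLO11-BSC1 at 1.10 with the block, edgeR adjusted p = 0.042) and FRE1 in 1. Levels under 1 CPM lie near the floor of a count of 0.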
